A study of Mus musculus with 8 samples.

Results

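The 34 genes described here are interferon-stimulated genes, chosen by name as a fixed list: RNA sensors, transcription factors of the interferon response, and the antiviral effectors these factors switch on. All 34 were found among 37046 features with a summed count, and all 34 passed the filter on low counts, as did 15184 genes in all. They were measured by sequencing of total RNA, depleted of ribosomal RNA, from white adipose tissue of wild-type C57BL/6J mice, all female, of a common inbred strain. The control group received the PBS vehicle, and the other group received 50 mg/kg of endostatin, the C-terminal fragment of collagen XVIII, which restrains angiogenesis. Both were injected into the tail vein, and the tissue was taken 2 h later, with food withheld in between. There were 4 libraries per group: numbers 1 and 2 came from batch 1, and numbers 3 and 4 from batch 2. What a batch stands for is not stated, and the age of the mice is not given. The depot is labelled epididymal although the mice were female. The series names 4 female mice without saying whether that is per group, and no label ties a library to an animal, so a p-value here speaks only of how far these samples spread, part of which may be technical.

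Interferons are secreted proteins that bind cell surface receptors, activate the kinases JAK1 and TYK2, and through a complex that holds STAT2 and IRF9 turn on genes that carry an interferon-stimulated response element (ISRE) near their start. Many cell types, adipocytes and macrophages among them, keep these genes at a low level without infection, a state called tonic interferon signalling. IRF7, itself one of the genes induced, amplifies the type I response, while USP18 and SOCS1 dampen it.

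The core of the ISRE was found for 15 of the 25 members that could be searched, and the stretch holding it is shown for 7 of these. RefSeq promoter windows on build GRCm38.p6, 250 bases before to 50 bases after a gene's start, were at hand for 25 of the 34 members. Each line gives bases upstream of the start on the gene's own strand, 5′ to 3′, and capitals mark matches to the ISRE core, which is GAAA, any 2 bases and GAAA again, read on either strand. Overlapping matches are capitalised as 1 run.
Ifit1: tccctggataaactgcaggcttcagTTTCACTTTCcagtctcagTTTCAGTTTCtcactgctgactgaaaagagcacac
Ifit3: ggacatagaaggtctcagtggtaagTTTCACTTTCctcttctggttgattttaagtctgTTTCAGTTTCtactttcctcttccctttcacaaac
Isg15: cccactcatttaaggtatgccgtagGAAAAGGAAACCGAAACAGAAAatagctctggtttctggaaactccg
Oas3: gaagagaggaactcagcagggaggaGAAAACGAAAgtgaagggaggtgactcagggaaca
Gbp2: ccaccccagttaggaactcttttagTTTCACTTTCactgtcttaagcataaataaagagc
Gbp7: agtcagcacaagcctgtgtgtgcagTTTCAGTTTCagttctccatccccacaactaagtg
Bst2: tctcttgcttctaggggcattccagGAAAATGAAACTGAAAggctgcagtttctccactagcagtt
The Ifit1 stretch lies at chr19:34640760-34640838, plus strand, with matches starting 104 and 85 bases before the start. That of Ifit3 lies at chr19:34583348-34583441, plus strand, with matches 156 and 122 bases before the start. The same 94 bases stand in front of its neighbouring copy Ifit3b at chr19:34607744-34607837, plus strand, 188 and 154 bases before that gene's start. Isg15 (chr4:156200850-156200921, minus strand) has 3 overlapping matches, and Bst2 (chr8:71537562-71537627, minus strand) has 2. The other stretches lie at chr5:120777700-120777759, minus strand (Oas3), at chr3:142620579-142620638, plus strand (Gbp2) and at chr3:142530258-142530317, plus strand (Gbp7).

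The 25 members had 29 windows, 2 each for Gbp3, Irf1, Irf9 and Ifit2. The core was present in 15 of the 29 windows (51.7%), against 3.44% of 32851 windows of the same length, and so in at least 1 window of 15 members. The members with it were Bst2, Ddx58, Gbp2, Gbp3, Gbp5, Gbp7, Ifih1, Ifit1, Ifit3, Ifit3b, Isg15, Oas1a, Oas3, Rsad2 and Stat2. It was not found for Ifi35, Ifi44, Ifit2, Irf1, Irf7, Irf9, Oasl1, Oasl2, Trim25 and Xaf1. The gamma-activated site, an element of the interferon-gamma response, spelled TTC, any 3 bases and GAA, was in 7 of the 29 windows (24.1%), against 8.3% of all windows, in 7 members: Bst2, Gbp5, Gbp7, Ifi35, Ifit2, Irf1 and Oas1a. Both motifs were searched on both strands, and the letters of 1 can overlap those of the other. With 1 mismatch allowed, the ISRE core was found in 25 of the 29 windows (86.2%), in all of the 25 members but Irf7, and also in 35.44% of all windows. A match is a run of letters in this window and no measure of binding. Dhx58, Zbp1, Oas2, Mx1, Mx2, Usp18, Parp9, Parp14 and Rtp4 were not searched.

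In control fat every member was detected in the mean of the 4 libraries, at levels from about that of a weakly expressed gene to well above the middle of the transcriptome. Mx1 ran from 0.0819 to 4.26 TPM over the controls, and its detection in control 1, the lowest, was uncertain. Levels were compared between genes in TPM, a unit that corrects for transcript length and sequencing depth. Of 14908 features with a mean of at least 1 TPM in controls, the median was 17.6 TPM. By their control means all 34 members reached 1 TPM, 21 reached 10 TPM and 18 lay above that median. Bst2, which encodes tetherin, a membrane protein that holds budding virus on the cell, was the highest, at 61.8 to 104 TPM over the 4 controls. It was followed by Irf1, a transcription factor of both interferon responses (43.0 to 66.9 TPM), and Gbp2, a guanylate-binding protein that attacks intracellular pathogens (46.5 to 54.7 TPM). Oas3, a 2′-5′-oligoadenylate synthetase, was the lowest at 0.612 to 1.55 TPM. The mean of Bst2 was 69.4-fold that of Oas3.

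Between these ends the order was close-set. Parp9, an ADP-ribosyltransferase partner (37.8 to 45.0 TPM), Ifi35 (33.3 to 43.8 TPM), Oasl2 (27.0 to 48.5 TPM) and Stat2, a signal transducer of the type I response (29.8 to 33.2 TPM), came next. They were followed by Irf7 (27.8 to 34.0 TPM), the proapoptotic factor Xaf1 (24.0 to 40.2 TPM) and Trim25, a ubiquitin ligase of RNA sensing (21.9 to 34.4 TPM). The control ranges of neighbours in the order overlapped in all but 2 of 33 pairs; the 2 breaks were between Gbp2 and Parp9 and between Rtp4 and Isg15. Below the median of all features lay, among others, Isg15, a ubiquitin-like modifier, at 11.3 to 12.7 TPM, Rsad2, which encodes viperin, at 4.55 to 7.34 TPM, and Ifit1, which binds foreign RNA ends, at 3.17 to 6.85 TPM. The coefficient of variation over the 4 controls had a median of 21.85% across the members. The 34 members summed to 709.8 ± 61.4 TPM in controls and 784.0 ± 48.6 TPM with endostatin (SD over 4 libraries).

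**Figure D1:**
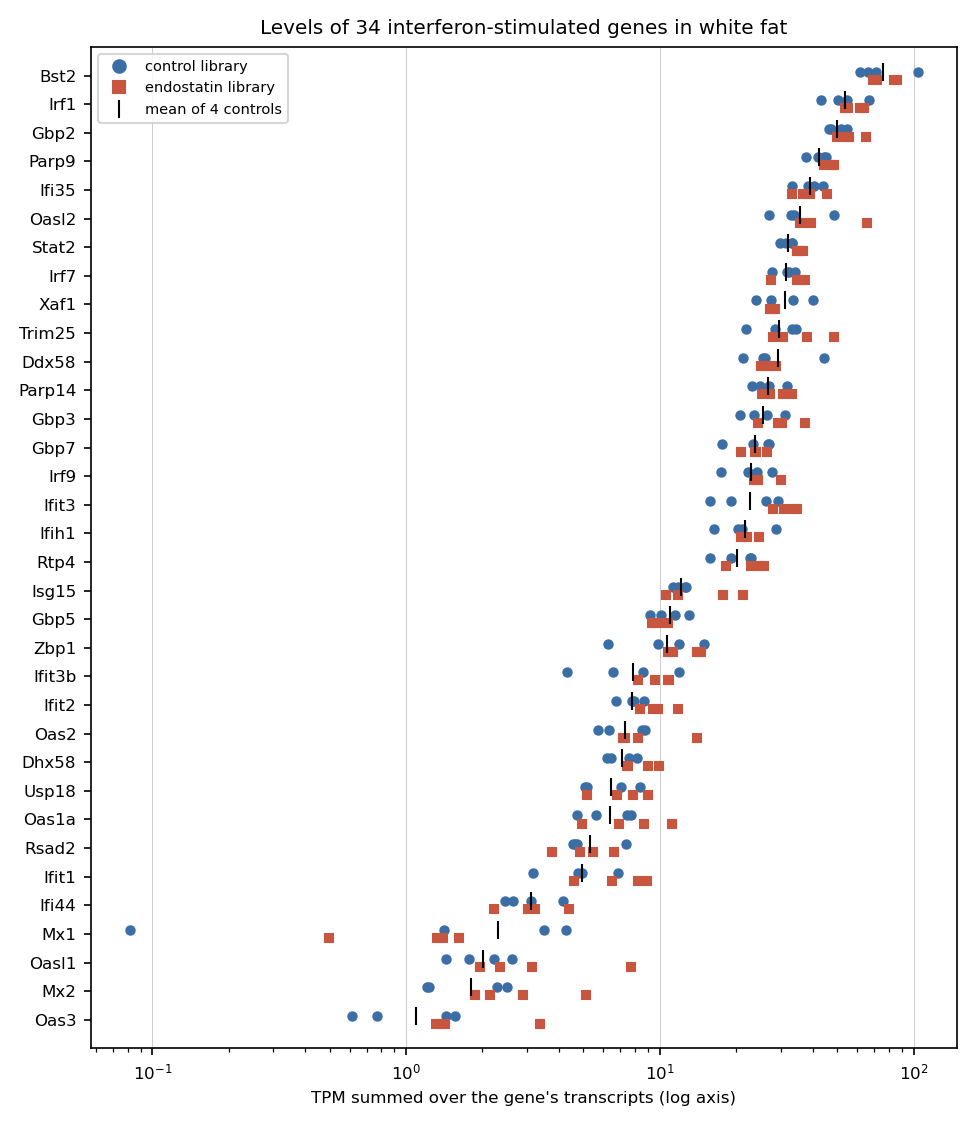
TPM of the 34 members on a log axis, 1 gene per row in the order of the control mean, with the 4 control libraries as blue circles, the 4 endostatin libraries as red squares and the control mean as a black bar. Bst2 stands at the top at 61.8 to 103.8 TPM in controls and Oas3 at the bottom at 0.612 to 1.55 TPM, with most neighbours overlapping.

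The total estimated count per library was 15826783 to 23786594, so that a count of 0 allows up to 0.126 to 0.19 CPM (counts relative to library size, scaled here with TMM factors), counting error only. Log2(CPM + 1) correlated at 0.975 to 0.996 across genes between libraries. The description of endostatin 4 repeats the read file stub of endostatin 3, but their counts differ (correlation 0.982), and the labels were kept. The 13 adipocyte markers were all detected, summing to 32400 TPM in control 3 and 49730 to 69040 TPM in the others. Control 3 and endostatin 4 stood apart with 1118 and 731.1 TPM over 15 oviduct and uterus markers, against 140.7 to 192.9 TPM elsewhere, and control 1 and control 4 held 276.5 and 530.5 TPM of skeletal muscle markers against 36.2 to 109.7 TPM. Macrophage markers, all 16 detected, summed to 1046 to 1550 TPM in controls and to 1325, 1391, 2265 and 2338 TPM in endostatin 1 to 4. The list of markers for plasmacytoid dendritic cells, known as strong interferon producers, summed to a low 9.49 to 15.1 TPM in controls and 10.6 to 19.8 TPM with endostatin. A single gene, Clec4b1, made up 34.4% of that sum over the libraries, so it is a weak measure of these cells. In bulk tissue, fewer cells of a type and less RNA per cell cannot be told apart.

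No member differed between endostatin and control past the threshold over both batches. After adjustment 0 of 34 members passed in edgeR's quasi-likelihood test with Benjamini-Hochberg correction, nor did any of the 15184 genes tested (0%), and DESeq2 and limma-voom also called 0 members. At an unadjusted p under 0.05, 1 member was higher (background 2.3% of all genes) and 0 were lower (background 0.896%). The higher count was 5 without control 2, 2 without endostatin 2, and 0 without control 3, control 4, endostatin 3 or endostatin 4. Without control 3, and without control 3 and endostatin 4, 1 member was lower, Gbp5. The share of all genes at this threshold was not counted in the fits with libraries left out. Log2 fold changes, endostatin minus control, were positive in 28 of 34 members (82.4%), with a median of 0.15, against 46.6% of all genes with a median of -0.01. No member separated the 4 endostatin from the 4 control libraries without overlap, where 0.935% of all genes did so upward and 0.692% downward. Without control 3 and endostatin 4, 26 of 34 were positive with a median of 0.08, beside 50.8% of all genes. Without control 1 and control 4, high in skeletal muscle markers, 26 were positive with a median of 0.09, beside 50% of all genes. Irf9, Bst2, Usp18 and Mx1 turned negative there, and Gbp7 and Ifi35 positive. Mx2 fell to 0.0041 and Oas2 to 0.02, while Ifit3 rose to 0.67 and Ifit3b to 0.70. The largest library-wise departures were in batch 2: 25 members had their lowest value in control 3 or control 4, and 14 their highest in endostatin 4. How many of all genes were extreme in these libraries was not counted, so the counts cannot be read as particular to the members. With 1 library left out in turn, 13 members changed the sign of their log2 fold change at least once: Bst2, Ddx58, Gbp3, Gbp7, Ifi35, Ifi44, Ifih1, Irf7, Mx1, Oas2, Parp9, Parp14 and Usp18. The macrophage marker sum was also highest in endostatin 3 and 4, as was that of conventional dendritic cell markers, at 148.1 and 154.5 TPM where the remaining 6 libraries held 72.1 to 117.8 TPM. Erythroid markers were highest in the same libraries, at 9477 and 7735 TPM against 4879 to 7264 TPM. Hepatocyte markers peaked in endostatin 4, at 8201 TPM against 3031 to 7926 TPM. A single gene, Clec10a, made up 63.8% of the conventional dendritic cell sum over the libraries, so that sum mostly follows 1 gene. Fibroblast and progenitor markers and lymph node stroma markers peaked in endostatin 4, at 5668 and 216.0 TPM against 2621 to 4177 TPM and 13.3 to 146.5 TPM elsewhere. Ccl21a alone made up 87.1% of the lymph node stroma sum. The part of these markers in the members' values was not tested.

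**Figure D2:**
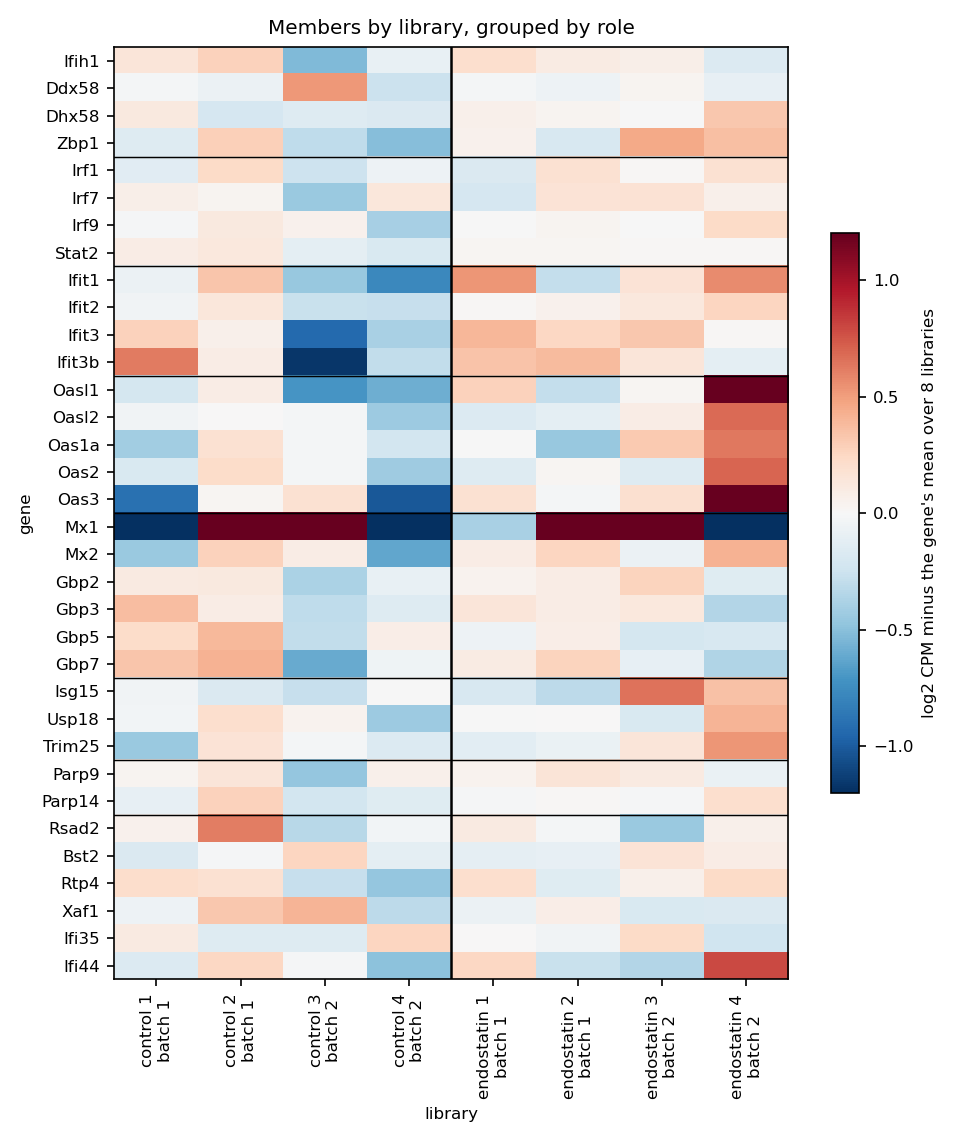
Log2 CPM of each member minus its mean over 8 libraries, genes in rows grouped by role (black lines) and libraries in columns, with red above and blue below the mean and colours capped at 1.2 log2 units. Control 3 and 4 are mostly blue, the 5 OAS genes are red in endostatin 4, and Mx1 swings widely on few reads.

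Among the RNA sensors, 3 of 4 had a positive log2 fold change and none passed the test. Ifih1 encodes MDA5, which detects long double-stranded RNA, and was at 50.7, 55.3, 31.7 and 43.0 CPM in control 1 to 4 and at 52.6, 49.0, 48.0 and 40.8 CPM in endostatin 1 to 4. The groups overlapped, with control 3 the lowest library, and the log2 fold change was 0.09 ± 0.13 (SE), or -0.03 without control 3. Ddx58 encodes RIG-I, the sensor of RNA with a free triphosphate end, and was at 42.4, 41.0, 61.8 and 36.0 CPM in control 1 to 4 and at 42.5, 41.3, 44.1 and 40.4 CPM in endostatin 1 to 4. Control 3 stood above the other 7 libraries, which lay close together; the log2 fold change was -0.10 ± 0.16 (95% interval -0.47 to 0.27) and became 0.08 without control 3 and 0.10 without control 3 and endostatin 4. Zbp1, a sensor of left-handed nucleic acid that triggers cell death, was at 6.73, 9.16, 6.08 and 5.26 CPM in control 1 to 4 and at 7.78, 6.56, 10.3 and 9.64 CPM in endostatin 1 to 4. In batch 2 both endostatin libraries were above both controls, and in batch 1 the groups overlapped. Its log2 fold change over both batches was 0.33 ± 0.23. Dhx58, which encodes the regulatory helicase LGP2, averaged 7.64 ± 0.824 CPM in controls and 8.80 ± 0.968 CPM with endostatin (SD).

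All 4 transcription factors had small positive log2 fold changes, 2 of them positive without control 3 and endostatin 4, and none passed the test. Irf1 was at 49.1, 63.3, 45.4 and 51.7 CPM in control 1 to 4 and at 47.7, 61.0, 54.4 and 61.0 CPM in endostatin 1 to 4, and Irf7 at 33.6, 32.8, 23.5 and 35.1 CPM in control 1 to 4 and at 27.9, 35.8, 36.2 and 33.5 CPM in endostatin 1 to 4. For both genes the groups overlapped, and the log2 fold changes were 0.10 ± 0.13 for Irf1 and 0.09 ± 0.15 for Irf7, or 0.02 and -0.05 without control 3. Stat2 was at 45.2, 46.3, 39.0 and 37.4 CPM in control 1 to 4 and at 43.1, 43.2, 42.7 and 42.9 CPM in endostatin 1 to 4; its 4 endostatin libraries were nearly equal (SD 0.201 CPM) and lay inside the control range. Its interval, -0.15 to 0.23 on the log2 scale, was the narrowest of the 34. Irf9, the DNA-binding partner of STAT2, averaged 30.9 ± 4.61 CPM in controls and 33.4 ± 2.71 CPM with endostatin. Its log2 fold change of 0.12 ± 0.13 became 0.0038 without control 4 and -0.02 without control 1 and control 4.

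The IFIT genes, whose products bind viral RNA, had the highest median log2 fold change with endostatin of the roles, 0.40 over 4 members, and all 4 were positive. Ifit3 was at 29.0, 24.9, 12.5 and 18.2 CPM in control 1 to 4 and at 31.4, 28.5, 30.0 and 24.1 CPM in endostatin 1 to 4. Its 4 endostatin libraries lay in a narrow range that overlapped control 1 and 2, while control 3 and 4 were lower than all others. The log2 fold change was 0.48 ± 0.19 (95% interval 0.05 to 0.91), and Ifit3 was the 1 member with an unadjusted p under 0.05 (adjusted p = 0.9999 by edgeR's quasi-likelihood test). Under 9 of 23 other settings its unadjusted p was 0.05 or more, among them the fits without control 2, control 3, control 4, endostatin 3 or endostatin 4. Ifit3 shares 61.8% of its 31-base words with Ifit3b, so reads cannot be divided between these copies with certainty. Summed, the pair gave a log2 fold change of 0.44 ± 0.20, with an unadjusted p above 0.05.

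Ifit1 was at 7.86, 10.4, 6.03 and 4.82 CPM in control 1 to 4 and at 11.9, 6.79, 9.24 and 12.3 CPM in endostatin 1 to 4. Endostatin 1 and 4 were above every control, endostatin 2 was below control 1 and 2, and the log2 fold change was 0.51 ± 0.28. Ifit2 averaged 16.6 ± 2.30 CPM in controls and 19.3 ± 1.50 CPM with endostatin, a log2 fold change of 0.22 ± 0.13, and Ifit3b averaged 8.67 ± 4.14 CPM in controls and 10.3 ± 1.55 CPM with endostatin, a log2 fold change of 0.33 ± 0.25. Neither had an unadjusted p under 0.05.

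The OAS genes encode enzymes that answer double-stranded RNA with 2′-5′-oligoadenylate, the activator of RNase L, and their OAS-like relatives. All 5 had positive log2 fold changes with endostatin, with a median of 0.25, and none passed the test. Oas3 was at 1.73, 3.26, 3.65 and 1.59 CPM in control 1 to 4 and at 3.66, 3.16, 3.69 and 8.23 CPM in endostatin 1 to 4. Endostatin 4 stood far above every other library, and the other endostatin libraries lay at the upper end of the controls. Its log2 fold change was 0.82 ± 0.40 (95% interval -0.11 to 1.75), and 0.46 without endostatin 4. Oasl1, which limits IRF7 translation, was at 2.26, 2.80, 1.60 and 1.75 CPM in control 1 to 4 and at 3.17, 2.16, 2.67 and 6.93 CPM in endostatin 1 to 4. Here too endostatin 4 stood alone, and the other 3 endostatin libraries overlapped the controls. The log2 fold change of Oasl1 was 0.79 ± 0.43, and 0.31 without endostatin 4.

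Oasl2 was at 36.1, 37.2, 36.6 and 27.5 CPM in control 1 to 4 and at 33.2, 34.3, 39.6 and 59.3 CPM in endostatin 1 to 4, with endostatin 4 the highest and control 4 the lowest library. Its log2 fold change was 0.25 ± 0.20, and 0.05 without endostatin 4. Oas2 reached 26.5 CPM in endostatin 4 against 12.1 to 19.1 CPM in the other 7 libraries, and its log2 fold change of 0.22 became -0.04 without endostatin 4. Oas1a averaged 6.34 ± 1.13 CPM in controls and 7.69 ± 2.37 CPM with endostatin, but 68.7% of its 31-base words also occur in Oas1g, so its own level is uncertain. Across the 5 genes, endostatin 4 lay a median of 0.70 log2 units above the 8-library mean, and the next highest library, endostatin 3, lay 0.09 above it. Endostatin 4 is also the library with 731.1 TPM of oviduct and uterus markers; control 3, with 1118 TPM of them, lay at -0.02. The part of these markers in the OAS values was not tested.

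**Figure D3:**
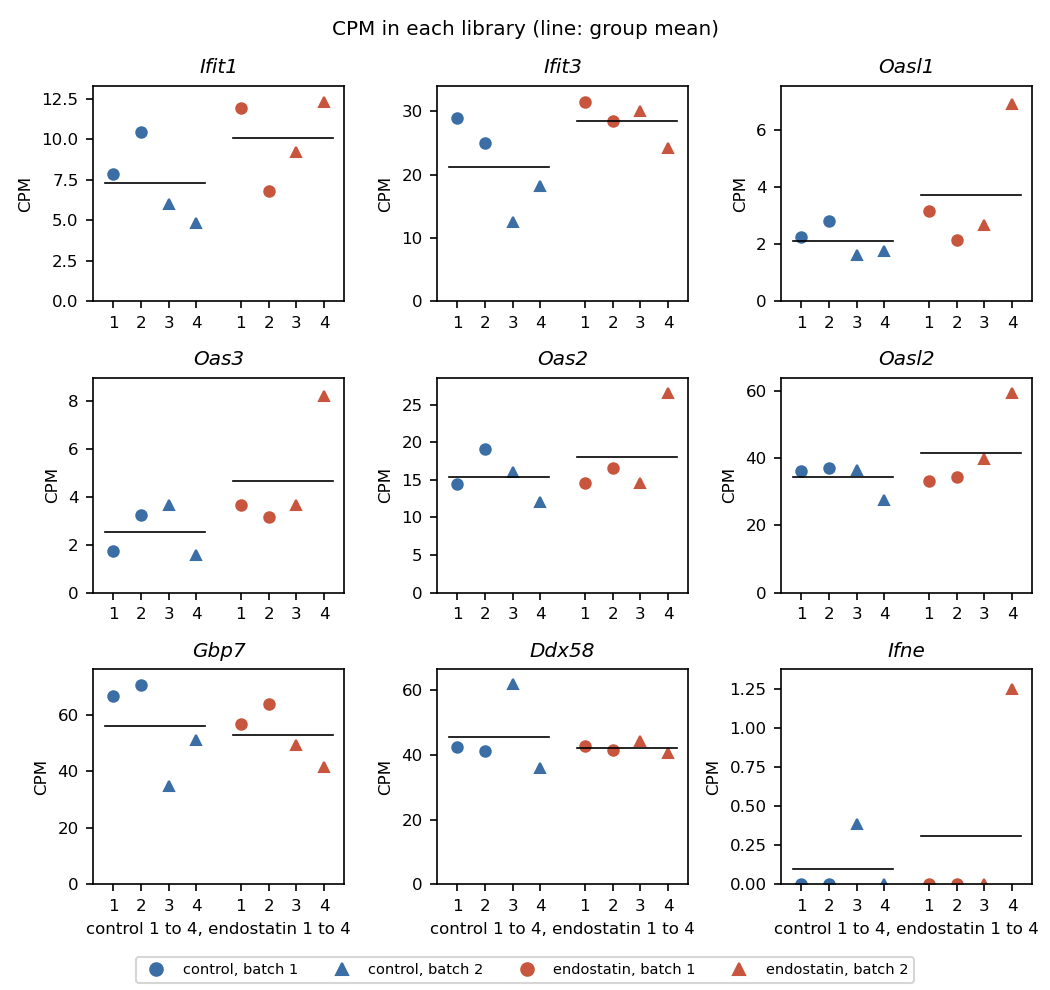
CPM of 8 members and of the interferon gene Ifne in each library, with controls in blue, endostatin in red, batch 1 as circles, batch 2 as triangles and group means as lines. Endostatin 4 is the highest library for Oasl1 (6.93 CPM), Oas3 (8.23), Oas2 (26.5), Oasl2 (59.3) and Ifne, while Ifit3 is lowest in control 3 and Ddx58 highest there.

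The dynamin-like GTPases, Mx and GBP proteins that trap viruses or rupture pathogen vacuoles, were split: 4 of 6 positive, with a median of 0.07. Gbp2 was at 77.7, 78.6, 55.4 and 67.9 CPM in control 1 to 4 and at 74.3, 77.2, 86.9 and 65.4 CPM in endostatin 1 to 4, with overlapping groups and a log2 fold change of 0.13 ± 0.13. Gbp5, which assembles on vacuoles and promotes inflammasome activation, was at 23.5, 26.4, 16.4 and 21.3 CPM in control 1 to 4 and at 19.3, 21.3, 17.4 and 17.7 CPM in endostatin 1 to 4. Its endostatin libraries lay within the control range, toward the lower end, with a log2 fold change of -0.20 ± 0.12 (95% interval -0.47 to 0.07). Gbp7 was at 66.6, 70.6, 34.9 and 51.2 CPM in control 1 to 4 and at 56.5, 63.9, 49.4 and 41.3 CPM in endostatin 1 to 4, where the 4 batch 1 libraries were above the 4 of batch 2. Its treatment log2 fold change was -0.06 ± 0.14, or 0.03 without control 4. Gbp3 averaged 27.7 ± 5.80 CPM in controls and 27.6 ± 4.13 CPM with endostatin, a log2 fold change of 0.01 ± 0.14. Mx1 held 0.0542 to 1.89 CPM in single libraries, down to below the level that a count of 0 allows, and its interval of -2.09 to 2.87 spans both directions widely. Mx2 was at 1.85 ± 0.538 CPM in controls, with a log2 fold change of 0.32 ± 0.29. Its transcripts Mx2-202 and Mx2-204 were annotated as polymorphic pseudogene, and 0% of its TPM lay on transcripts annotated as protein-coding. With protein-coding genes alone Mx2 dropped out, and 33 members remained.

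Of the ISG15 system, Isg15 was at 3.57, 3.27, 3.04 and 3.67 CPM in control 1 to 4 and at 3.21, 2.97, 5.77 and 4.71 CPM in endostatin 1 to 4. The 2 batch 2 endostatin libraries were the highest, and the batch 1 endostatin libraries were below both batch 1 controls. Usp18, the protease that removes ISG15 and blocks the receptor, was at 5.00, 5.89, 5.25 and 3.78 CPM in control 1 to 4 and at 5.08, 5.12, 4.49 and 6.77 CPM in endostatin 1 to 4, with overlapping groups. Its log2 fold change of 0.11 ± 0.21 became -0.06 without endostatin 4 and -0.05 without control 1 and control 4. It was also negative without control 4. Trim25 was at 50.4, 76.9, 67.6 and 61.4 CPM in control 1 to 4 and at 63.1, 65.3, 76.2 and 99.6 CPM in endostatin 1 to 4. Endostatin 4 was the highest and control 1 the lowest library, with a log2 fold change of 0.23 ± 0.16. Of the ADP-ribosyltransferases, Parp9 was at 67.2, 72.4, 47.6 and 68.1 CPM in control 1 to 4 and at 67.4, 73.0, 70.7 and 62.0 CPM in endostatin 1 to 4, with control 3 alone below the rest. Its log2 fold change was 0.10 ± 0.12, or -0.02 without control 3, and that of Parp14, the most abundant member by CPM, was 0.09 ± 0.12.

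Among the other effectors 3 of 6 were positive, with a median of -0.01. Bst2 was at 22.4, 25.1, 30.3 and 23.5 CPM in control 1 to 4 and at 23.5, 23.7, 28.4 and 27.0 CPM in endostatin 1 to 4. All endostatin libraries lay within the control range. The log2 fold change was 0.02 ± 0.11, or -0.11 without control 1 and control 4. Rsad2 was at 11.1, 16.4, 8.46 and 10.5 CPM in control 1 to 4 and at 11.5, 10.5, 7.85 and 11.1 CPM in endostatin 1 to 4, with overlapping groups, control 2 highest and a log2 fold change of -0.16 ± 0.19, or -0.0038 without control 2. Xaf1 was at 12.8, 16.7, 17.8 and 10.8 CPM in control 1 to 4 and at 12.7, 14.1, 11.8 and 11.9 CPM in endostatin 1 to 4. Control 2 and 3 were above every endostatin library, control 4 below them all, and the log2 fold change of -0.21 ± 0.18 (95% interval -0.61 to 0.20) was the lowest of the 34, and -0.05 without control 3.

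Rtp4, a chaperone that restricts RNA viruses, was at 13.9, 13.6, 9.90 and 8.72 CPM in control 1 to 4 and at 13.8, 10.8, 12.6 and 14.1 CPM in endostatin 1 to 4. Control 3 and 4 were the lowest libraries, and the log2 fold change was 0.18 ± 0.17. Ifi35 was at 25.8, 21.5, 21.5 and 28.7 CPM in control 1 to 4 and at 24.0, 23.2, 28.0 and 20.3 CPM in endostatin 1 to 4 and Ifi44 at 3.57, 4.78, 3.98 and 2.85 CPM in control 1 to 4 and at 4.78, 3.33, 3.15 and 6.93 CPM in endostatin 1 to 4. Both had overlapping groups, and endostatin 4 was the lowest library for Ifi35 and the highest for Ifi44. Their log2 fold changes were -0.03 ± 0.14 and 0.26 ± 0.31. Without endostatin 4 both changed sign, that of Ifi44 to -0.08, and it was also just below 0 with transcript length offsets.

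The within-batch values differed in sign for most members. In batch 1, 2 endostatin against 2 control libraries, 10 of 34 members had a positive log2 fold change (all genes 50.6%), with a median of -0.05. In batch 2, 30 of 34 were positive (all genes 46.8%), with a median of 0.31, and the difference between the batches was positive in 30 (all genes 47.8%). Of the members 21 (61.8%) were negative in batch 1 and positive in batch 2, a pattern seen in 24.2% of all genes. Trim25, Mx1, Dhx58, Parp9, Mx2, Oas3, Ifit1, Oasl1 and Ifit3 were positive in both (9 members, 26.5%), a share near the 22.6% of all genes. Ifi35, Xaf1 and Gbp5 were negative in both (3 members, 8.82%, against 25.2% of all genes). No member passed an adjusted threshold in batch 1, in batch 2 or in the difference between them in edgeR's test, as no gene did (0%). DESeq2 also called 0 members, but 7 of all genes in batch 1, 123 in batch 2 and 26 for the difference, and limma-voom called 0 in either batch.

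At an unadjusted p under 0.05 in edgeR's test, 7 members were higher in batch 2 (background 4.78%): Zbp1, Oasl2, Rtp4, Ifit1, Oasl1, Ifit2 and Ifit3. None was lower (background 2.11%), though without control 4 the batch 2 values of Ddx58 and Xaf1 were -0.55 and -0.59. These counts depended on single libraries. Fits without a batch 2 library leave 1 library on a side there, and the share of all genes was not counted in them. Only medians are therefore given. The members' batch 2 median was 0.262 without endostatin 4, 0.288 without control 3 and endostatin 4, and 0.432 without endostatin 3. In batch 1 the count was 0 in both directions with all libraries (backgrounds 0.494% and 0.356%). This did not hold for Gbp5 without control 3, where its batch 1 log2 fold change was -0.31. Both endostatin libraries were above both controls for 16 members in batch 2 (47.1%, against 14.7% of all genes) and for 0 members in batch 1 (against 16.1%). In batch 1 they were below both controls for 6 members (17.6%, against 15.3%). The control values of the members were themselves lower in batch 2: the median deviation from the 8-library mean was -0.23 and -0.24 log2 units in control 3 and 4, and -0.04 and 0.15 in control 1 and 2.

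The batch difference was widest for Oasl1, at 0.07 ± 0.49 in batch 1 and 1.51 ± 0.50 in batch 2. For Zbp1 it was -0.15 ± 0.23 and 0.81 ± 0.24, a difference of 0.96 ± 0.33 (adjusted p = 0.997 by edgeR's quasi-likelihood test). Rtp4 gave -0.16 ± 0.19 and 0.52 ± 0.19, a difference of 0.67 ± 0.27. Zbp1, Rtp4, Oasl2 and Ifit2 were the members with an unadjusted p under 0.05 for the difference, 4 in all upward (background 2.19%) and 0 downward (1.28%). That count depended on single libraries, in fits with 1 library on a side of a batch. The share of all genes was not counted in those fits. The members' median difference was 0.27 without control 2, 0.41 without endostatin 2, 0.28 without endostatin 4 and 0.44 without control 4. Ddx58 went the other way, 0.01 in batch 1 and -0.21 in batch 2. With control 2 left out, 20 members were positive in batch 1, and the batch 1 median became 0.04. In batch 2, without control 3 and endostatin 4, 1 library was left on each side, and 30 of 34 were positive with a median of 0.29. Of these, 28 were also positive with all libraries, while Ddx58 and Xaf1 turned positive and Rsad2 and Gbp7 negative. Macrophage marker sums were 1238 and 1270 TPM in the batch 2 controls and 2265 and 2338 TPM in the batch 2 endostatin libraries, against 1046, 1550, 1325 and 1391 TPM in batch 1. Erythroid marker sums were 5341 and 6138 TPM in the batch 2 controls and 9477 and 7735 TPM in the batch 2 endostatin libraries. In batch 1 they were 5760 and 7264 TPM in controls and 4879 and 5295 TPM with endostatin. The part of these markers in the batch 2 values was not tested.

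**Figure D4:**
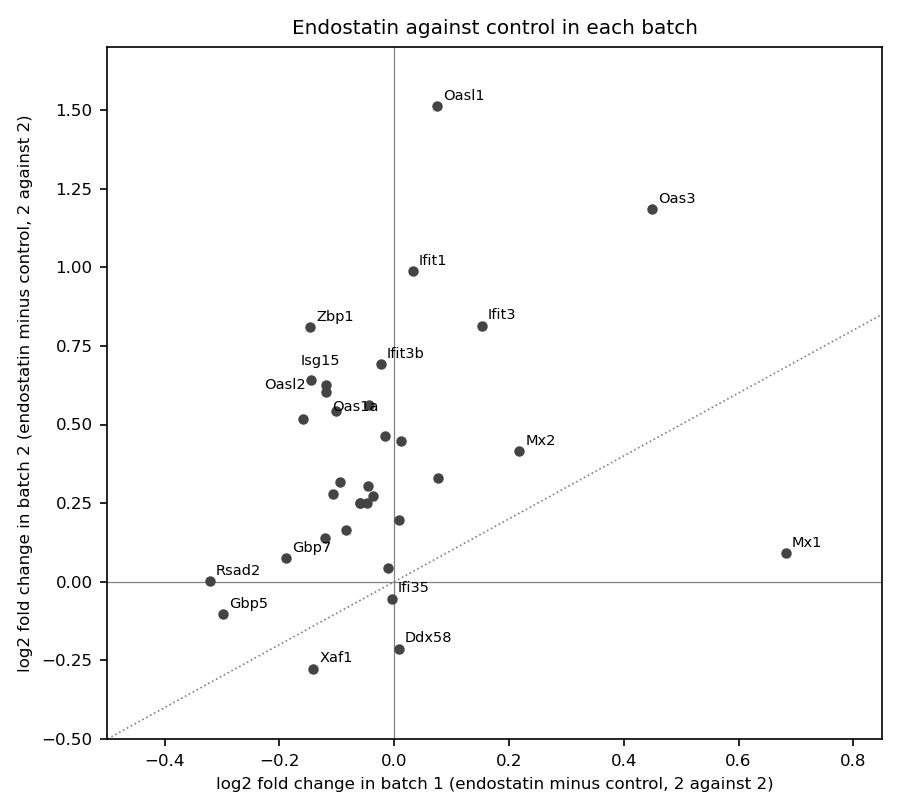
Log2 fold change of each member, endostatin minus control, in batch 1 (horizontal axis) and in batch 2 (vertical axis), 2 libraries against 2 in each; the dotted line marks equal values. Most points lie above 0 on the vertical axis and near or left of 0 on the horizontal axis, with Oasl1 and Oas3 highest in batch 2.

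Batch 2 against batch 1, with treatment in the fit, called 0 members after adjustment in edgeR's test and 6 of all genes (0.0395%), and DESeq2 called 0 members and 171 of all genes. At an unadjusted p under 0.05, 6 members were lower in batch 2 (background 4.54%) and 0 higher (background 5.42%). They were Ifih1, Gbp3, Gbp7, Ifit3b, Ifit3 and Gbp5. Gbp7 had the smallest p, with a log2 difference of -0.54 ± 0.14 (adjusted p = 0.435 by edgeR's quasi-likelihood test), and Ifih1 followed at -0.35 ± 0.13. On the higher side Isg15 was at 0.37 ± 0.23 and Bst2 at 0.20 ± 0.11, neither with an unadjusted p under 0.05. Of all 34, 11 were positive (all genes 52.1%). All 5 OAS genes had positive batch differences, but 1 of the 5 without control 3 and endostatin 4; all 4 IFIT genes and all 6 GTPases had negative ones. The IFIT and GTPase signs depend on the scaling: with library size alone 1 IFIT gene and 2 GTPases were positive, the median of all genes moved from 0.01 to 0.13, and the number of positive members from 11 to 22, while 3 members were lower at an unadjusted p under 0.05. That lower count was 1 without control 1, 2 without control 2 and 1 without control 3 and endostatin 4. The higher count was 2 without control 2 (Trim25 and Oas1a), 1 without control 4 (Bst2) and 1 without control 3 and endostatin 4 (Ifi35). Without control 2, 19 members were positive, beside 52.9% of all genes. The shares of all genes at an unadjusted p under 0.05 were not counted with library size alone or with libraries left out.

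The members did not vary as 1 block across the 8 libraries. Of 33 members compared with Irf7 on log2 CPM, 15 had a positive Spearman rho, the median was 0, and 0 passed after Benjamini-Hochberg adjustment by exact permutation, on either Spearman or Pearson correlation. The highest rho was 0.595, for Parp9 (Pearson r = 0.835, adjusted p = 0.506 for r and 0.935 for rho by exact permutation, r = 0.378 without control 3 and endostatin 1) and for Ifi35 (r = 0.449). Gbp2 followed at rho = 0.548. The lowest were Ifi44 at -0.69, Xaf1 at -0.57 and Usp18 at -0.55. With each batch's mean subtracted, Parp9 alone passed for Pearson r (r = 0.919, adjusted p = 0.0385 by permutation). The Spearman count stayed at 0, with rho = 0.881 for Parp9 (adjusted p = 0.239 by permutation). These permutations ran over all 8 libraries and not within batches, so they are not exact for centred values and the pass decides nothing.

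Over all 561 pairs of members, 375 had a positive rho and the median was 0.214, against 0 over all pairs of the genes tested. A rho of at least 0.7 was found in 10.5% of member pairs and 4.98% of all pairs, and a rho of at most -0.7 in 1.1% and 4.81%. Without control 4 the latter shares were 4.6% and 6.48%, and the former 9.8% and 6.63%. Without endostatin 3 the share at 0.7 or more was 16.6% of member pairs and 6.97% of all pairs. The pairs share libraries, depth and tissue makeup, so these are descriptions. Among the roles the OAS genes had the highest median rho, 0.667 over 10 pairs, followed by the IFIT genes with 0.369 over 6 pairs. The GTPases gave 0.071 over 15 pairs. Without control 3 and endostatin 4 the median over all member pairs was 0.257, against -0.029 for all gene pairs.

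After adjustment over the 561 pairs, 0 passed by Spearman and 4 by Pearson correlation in exact permutation tests. These pairs are named because of their values. Irf9 varied together with Usp18 (r = 0.935, rho = 0.976, r = 0.869 without the 2 libraries farthest from the first gene's median) and with Mx2 (r = 0.862, r = 0.704 likewise). Both Irf9 and Usp18 ran against Ifi35, with r = -0.81 and -0.91, or -0.80 and -0.88 without the 2 farthest libraries. The adjusted p was 0.0348 for each of the 4 pairs by exact permutation. Within batches, with batch means subtracted, r was 0.932 for Irf9 with Usp18 and -0.91 for Usp18 with Ifi35. A pair from separate roles, Ifit1 and Oasl1, had rho = 0.976 and r = 0.830 (adjusted p = 0.0742 for rho and 0.164 for r by exact permutation), and the neighbouring copies Ifit3 and Ifit3b r = 0.948.

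**Figure D5:**
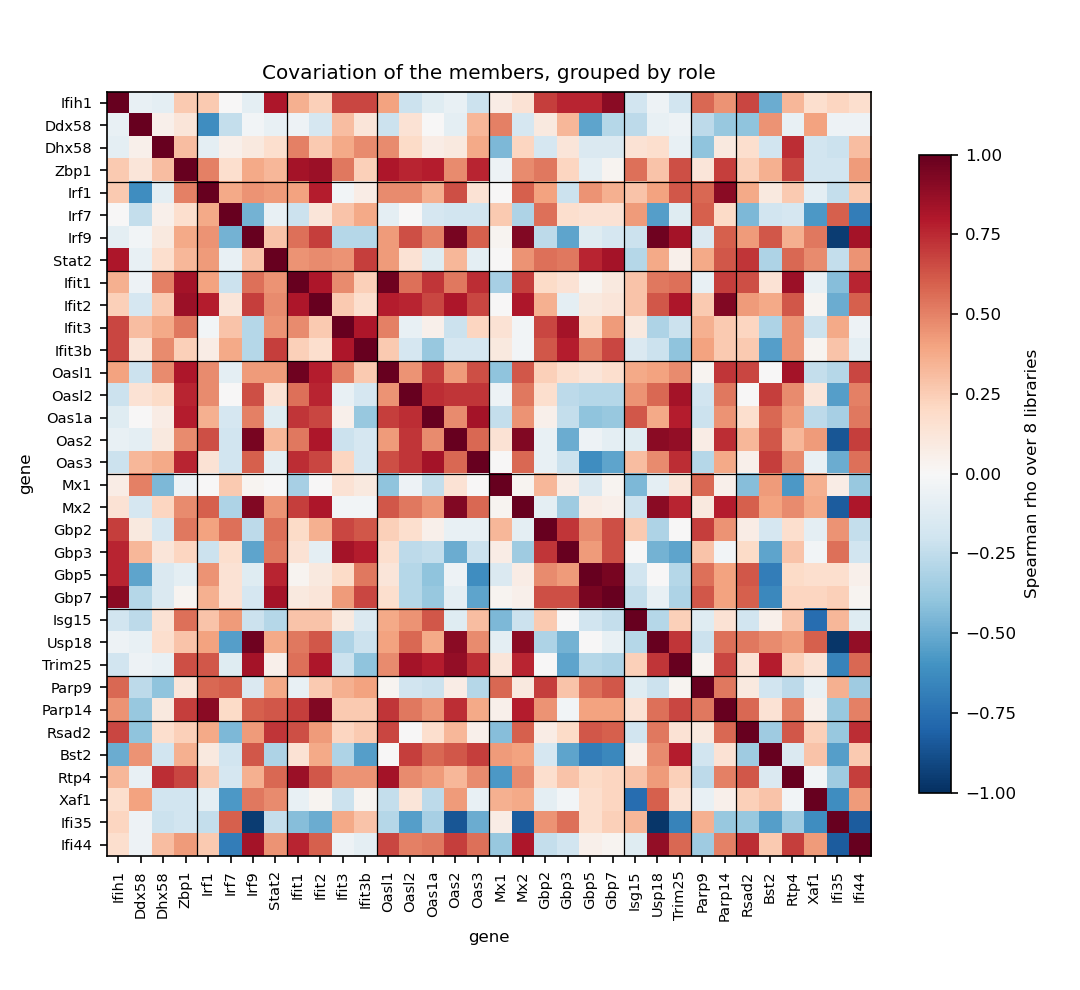
Spearman rho over 8 libraries for every pair of the 34 members, genes in the same order on both axes and grouped by role (black lines), from blue at -1 to red at 1. The OAS block is red throughout (median 0.667), Ifi35 is blue against Irf9 and Usp18, and the Irf7 row is pale.

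Upstream of the members, the interferon genes themselves were nearly silent. Of 13 ligand genes, 8 had no read in any library, Ifnb1 among them, and none passed the filter. Ifng, the type II interferon, had 2 reads in control 4, 3 in endostatin 3 and 1 in endostatin 4. Ifne, an interferon known from the epithelium of the female reproductive tract, had 7 reads in control 3, 23 in endostatin 4 and 0 in the other 6 libraries. Those 2 libraries are the ones with high oviduct and uterus markers, and in the remaining libraries a count of 0 allows up to 3 reads.

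The receptors and kinases were well expressed in both groups. Of 11 genes for interferon receptors and the JAK-STAT pathway, all were tested and 7 had a positive log2 fold change (46.6% of all genes). The median was 0.03, and 0 passed. Ifnar1 and Ifnar2, the type I receptor chains, had control means of 33.6 and 76.2 TPM and log2 fold changes of 0.00 ± 0.06 and 0.04 ± 0.14. Ifngr1 was at 142 TPM with -0.04 ± 0.19, Jak1 at 91.3 TPM with 0.10 ± 0.09, and Tyk2 at 19.6 TPM with 0.03 ± 0.07. The smallest p-values in each direction belonged to Il10rb (0.21 ± 0.11) and Jak2 (-0.25 ± 0.30), which was at 126 CPM in control 3 against 44.4 to 61.0 CPM elsewhere.

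Nucleic acid sensing and its adaptors gave 15 positive log2 fold changes of 21 tested genes (46.6% of all genes), with a median of 0.07, and 0 passed. Mavs, the mitochondrial adaptor of RIG-I and MDA5, and Irf3, the factor it activates, were at -0.06 ± 0.09 and -0.02 ± 0.07. Eif2ak2, the RNA-activated kinase PKR, was at 0.09 ± 0.08 and the RNA editor Adar at 0.04 ± 0.12. Unc93b1, the chaperone of endosomal Toll-like receptors, was at 63.2, 86.9, 58.4 and 69.2 CPM in control 1 to 4 and at 69.0, 85.4, 101 and 115 CPM in endostatin 1 to 4. Endostatin 3 and 4 were above all other libraries, as they were for the macrophage and erythroid markers, and the log2 fold change was 0.40 ± 0.18. Myd88 was at -0.43 ± 0.37, with 82.7 CPM in control 3 against 19.6 to 33.6 CPM elsewhere. Of 13 feedback regulators 8 were positive (46.6% of all genes), with a median of 0.02 and 0 past the test. Socs1 averaged 2.45 ± 1.51 CPM in controls and 2.39 ± 0.416 CPM with endostatin, a log2 fold change of 0.01 ± 0.41, and Ptpn6 and Ptpn1 were at 0.26 ± 0.14 and -0.12 ± 0.08.

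A further list of interferon-stimulated genes outside the 34 was read beside them. Of 68 tested of 70, 61 had a positive log2 fold change over both batches (46.6% of all genes), with a median of 0.15. After adjustment 0 passed in edgeR's test. At an unadjusted p under 0.05, 3 were higher and 0 lower (backgrounds 2.3% and 0.896%). In batch 1, 29 were positive (50.6% of all genes) with a median of -0.03. In batch 2, 59 were positive (46.8% of all genes) with a median of 0.32. By unadjusted p under 0.05 in edgeR's test, 19 were higher and 0 lower in batch 2 (backgrounds 4.78% and 2.11%). For batch 1 these counts were 0 and 1 (backgrounds 0.494% and 0.356%). The smallest p upward was that of Ifi211, a DNA-binding PYHIN family gene, at 0.40 ± 0.15, and the smallest downward that of Cd274, which encodes PD-L1, at -0.31 ± 0.14. Of the genes known chiefly for induction by interferon-gamma, 22 of 34 tested were positive (46.6% of all genes), with a median of 0.06. Their medians were -0.14 in batch 1 and 0.21 in batch 2. Ciita, the master regulator of MHC class II, was at 0.36 ± 0.20 and Wars at -0.26 ± 0.11. Cxcl10, a chemokine of both interferon types, was low at 0.964 ± 0.802 CPM in controls and 1.15 ± 0.347 CPM with endostatin, with a log2 fold change of 0.34 ± 0.45. The lists share libraries with the members, so their values stand beside them and are no independent repeat.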

How the data were processed

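The 34 members, their roles, the pathway and marker lists, the tests and the alternatives were chosen with earlier results of these data known. The authors deposited transcript-level estimated counts and TPM made with Salmon, with the GRCm39 build, per the submitters' processing notes; its version is not given in the sources used here. Salmon shares reads out between transcripts with common sequence, so values of near-identical genes are uncertain. Per the labels' protocols the libraries were strand-specific and depleted of ribosomal RNA. Transcripts were joined to GENCODE M21 for names only (113710 of 115620 matched, 98.35%; the rest were kept as features of their own), and the estimated counts of a gene's transcripts were added and rounded to whole numbers. The authors' TPM were summed per gene for levels.

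After filterByExpr, 15184 genes were fitted with edgeR 4.0.16 (R 4.3.3; TMM factors, quasi-likelihood test, terms for batch and treatment, and an interaction for within-batch values), two-sided, with Benjamini-Hochberg adjustment over all genes and a threshold of 0.05; the code was tested on simulated data. Intervals are 95%. Correlations used log2 CPM with a prior count of 2. Alternatives were other size factors and filters, DESeq2 1.42.0, limma-voom (limma 3.58.1), a robust fit, length offsets, protein-coding genes alone, no batch term, a replicate block and left-out libraries. Replicate numbers did not pair libraries: same-numbered libraries correlated at 0.211, 0.144, -0.07 and -0.29 in their deviations from group means.

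Values in every library are given for the 10 members highest in controls, the 4 highest and 4 lowest log2 fold changes, the 2 members per direction with the smallest p in each of 3 comparisons, and the 3 highest and 3 lowest correlations with Irf7. From each pathway list the gene with the smallest p in each direction was named, with further genes given whatever their values; a gene counted in these lists is not reported here. Promoter windows came from RefSeq on GRCm38.p6, a different build from that of the counts. Protein identity between members was not analysed here; shared 31-base words of GENCODE M21 transcripts took its place.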

Additional observations from a re-analysis of the deposited data

Results flagged for a closer look

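Of 68 groups of 4 libraries (34 members in 2 groups), 7 held 1 library that stood off from the other 3 by more than Dixon's 95% critical value for the gap over the group's range; chance alone flags about 1 in 20 groups. Of these, 5 were endostatin 4. Oas3 was at 8.233 CPM there against 3.156 to 3.686 CPM in the other endostatin libraries, and Oas2 at 26.49 CPM against 14.63 to 16.58 CPM. Irf9 was at 37.43 CPM (others 31.73 to 32.67) and Parp14 at 111.8 CPM (others 96.09 to 98.19). Gbp3 was lower, at 21.4 CPM against 28.94 to 30.11 CPM.

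The remaining flags were in controls. Dhx58 was at 8.87 CPM in control 1 against 7.116 to 7.353 CPM in the other controls, and Oasl2 at 27.46 CPM in control 4 against 36.08 to 37.15 CPM. Endostatin 4 also held 731.1 TPM of oviduct and uterus markers, and control 1 and control 4 held 276.5 and 530.5 TPM of skeletal muscle markers; the part of either in these values was not tested.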

How the results depend on the processing

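No member passed the adjusted threshold in the treatment, batch or interaction comparison under any alternative run. Over both batches the members' median log2 fold change of 0.153 stayed positive, at 0.08 to 0.206 with 1 library left out and 0.083 to 0.167 under the other settings; 25 to 29 and 26 to 28 members were positive. The batch 2 median was 0.262 to 0.432 with 1 library left out, and that of batch 1 -0.113 to 0.038. Ddx58 reversed, to 0.081 without control 3 (range -0.22 to 0.081 over single libraries) and to 0.098 without control 3 and endostatin 4; of all 34 members, 19 kept their sign over both batches under every alternative run, 13 changed it with 1 library left out and 12 under another setting. With batch means subtracted, 1 member passed with Irf7 by Pearson correlation in place of 0, on permutations that were not kept within batches. With 1 mismatch, 24 members held the ISRE core in place of 15. The replicate block, on numbers that do not pair the libraries, gave 0 members past the threshold, 28 positive and a median of 0.149. DESeq2 called 4 of all genes for the treatment, and edgeR without the low-count filter 3 in batch 2, where it also called 6 without control 4 and 24 without endostatin 3; none was a member. Protein identity was not run. Low counts limit Mx1, and the estimates of Ifit3, Ifit3b and Oas1a rest on how shared reads were divided.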

Other observations

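The files are per transcript, and the share of a member's TPM held by each transcript type differed between members. Ifit1, Ifit3, Ifit3b, Oas1a and Isg15 each had a single transcript. For Oasl2, the transcript with the largest share in all libraries but control 2 was annotated as a target of nonsense-mediated decay, with 29.1% to 37.4% of the gene's TPM over the 8 libraries, and protein-coding transcripts held 34.5% to 48.0%. The share on decay targets was larger for Gbp5, at 49.6% to 83.2%, with 11.4% to 41.0% on protein-coding transcripts. For Xaf1 these shares were 23.3% to 39.4% and 48.6% to 64.0%, and for Ifi35 17.9% to 28.2% and 61.6% to 79.7%. Stat2 had 45.0% to 65.3% of its TPM on transcripts annotated with a retained intron. For Mx1 such transcripts held a median of 60.7%, and its coding share ran from 0% to 80.2%, on few reads.

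Adar, the RNA editing enzyme with a constitutive and an interferon-inducible protein form, had 30.8% to 41.0% of its TPM on transcript Adar-201 and 9.9% to 32.3% on Adar-203. Which transcript is the inducible one was not established from the files.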
